A study of Mus with 8 samples.

Results

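Sox10, Mbp, Pmp22, Prx, Mag, Ngfr and L1cam are genes of Schwann cells and of the nerves these cells ensheathe. They were followed in subcutaneous MC38 tumours of Ext1S100a4Cre hosts and WT hosts. The 7 genes were chosen by name, and their probes by RefSeq transcript accession. This gave 13 of the 56605 probes on the array, and each of the 7 genes was among the 31281 genes and transcripts that could be tested. MC38 is a mouse colon cancer line, and the same line was transplanted into both kinds of host. Ext1S100a4Cre hosts (4 tumours) carried Ext1 flox/flox and S100a4-Cre, and WT hosts (4 tumours) were wild type, all labelled as B6. The labels give no age of the animals. Tumours were collected 25 to 30 days after transplantation, and RNA of the whole tumour was labelled with Cy3 and hybridised to a 1-colour Agilent array.

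S100a4 drives the Cre, and fibroblasts as well as some myeloid cells express it. Only host cells carry the floxed Ext1, so RNA of the transplanted cancer cells is measured together with that of targeted cells. The product of Ext1 is part of the enzyme complex that builds heparan sulfate chains. In whole tumours Ext1 had a mean level of -0.46 in Ext1S100a4Cre hosts and -0.18 in WT hosts (difference -0.28, SE 0.18, limma adjusted p = 0.747). The files do not place the Ext1 probe relative to the deleted part, so this value does not check the genotype. S100a4 averaged 3.82 in Ext1S100a4Cre hosts and 3.71 in WT hosts (difference 0.11, SE 0.63, limma adjusted p = 0.968).

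Schwann cells are the glia of peripheral nerves. Some wrap axons in myelin, and others hold bundles of thin axons without it. Myelin is built from lipids and a small set of proteins, which are switched on by the transcription factor Sox10 together with Egr2. After nerve injury these cells leave the myelinating state and express Ngfr. Several of the genes are also active outside nerves: Pmp22 in fibroblasts and epithelia, Mbp in blood cells and oligodendrocytes, L1cam in tumour cells.

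Levels are log2 intensities minus the 75th percentile of their array, so a level of 0 is that percentile. A difference is the mean log2 level in Ext1S100a4Cre hosts less that in WT hosts. Levels of different probes are not compared with one another. A probe was kept where 4 or more of the 8 arrays read it well above background, and the brightest kept probe stood for its gene. The 75th percentile of intensity was 846.9 to 1138 on the Ext1S100a4Cre host arrays and 1029 to 1265 on the WT host arrays. Probes well above background made up 65.65% to 70.88% of all probes in the Ext1S100a4Cre host and 68.83% to 71.09% in the WT host, with the lowest shares in Ext1S100a4Cre host tumours 1 (65.65%) and 4 (65.96%).

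Tumours within a group were not alike. A list's level is given as its genes' average log2 distance from their own 8-tumour means. For 4 Y-linked genes it was -3.43 and -3.29 in Ext1S100a4Cre host tumours 1 and 4, and 0.42 to 2.44 in the other 6. The labels used here give no sex of the hosts. Both tumours with low Y-linked values are in the Ext1S100a4Cre host and none is in the WT host, so host sex may differ between the groups. It is then partly confounded with genotype wherever Ext1S100a4Cre host tumours with low and with higher Y-linked values are both kept. Without tumours 2 and 3 of that host the confounding is complete. Without tumours 1 and 4 of that host no tumour with low Y-linked values remains. Fibroblast markers ranged from -2.85 in Ext1S100a4Cre host tumour 1 to 2.01 in WT host tumour 3, and macrophage markers from -2.47 to 2.23 in the same tumours, with 10 of 14 and 11 of 12 genes highest in WT host tumour 3. The log2 of their summed signals was 4.30 to 7.64 in the Ext1S100a4Cre host and 6.90 to 9.04 in the WT host for fibroblasts, and 4.36 to 6.05 in the Ext1S100a4Cre host and 5.54 to 7.63 in the WT host for macrophages. Skeletal muscle markers were at 2.94 and 3.68 in Ext1S100a4Cre host tumours 2 and 3, and at most -0.17 in the other 6. The part of these differences in the results below was not tested, and fewer cells of a type cannot be told apart from less RNA per cell in whole tumours.

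None of the 7 genes passed the test between hosts. All 7 had a lower mean in the Ext1S100a4Cre host, with differences from -0.65 for Pmp22 to -0.10 for Mag. Of all 31281 genes tested, the mean was lower for 41.9% and higher for 58.1%. The adjusted p of limma ran from 0.771 to 0.951 over the 7 genes. Limma called 0 genes (0% of those tested) at an adjusted p of 0.05, and at unadjusted p under 0.05 there were 2050 (6.55%), with 2.16% lower and 4.39% higher, of which 0 were among the 7. The groups overlapped for each of the 7. They were apart for 4.54% of all genes, and at that share 0 of 7 apart is not unusual. The median difference of the 7 was -0.18, against 0.05 over all genes tested.

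Several of these directions depended on WT host tumour 3. It was the highest of the 8 tumours for 5 of the 7 genes (Sox10, Pmp22, Prx, Mag and L1cam) and for 9 of the 13 probes, whereas it was the highest for 19.8% of all genes tested. Without it only 4 of the 7 genes had a lower mean, and Prx, Mag and L1cam changed direction, to 0.10, 0.30 and 0.06. In that fit 2 genes were called over all genes. Without Ext1S100a4Cre host tumours 1 and 4, which had the low Y-linked values, 4 of 7 had a lower mean. Without both Ext1S100a4Cre host tumour 1 and WT host tumour 3, 4 of 7 did.

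**Figure D1:**
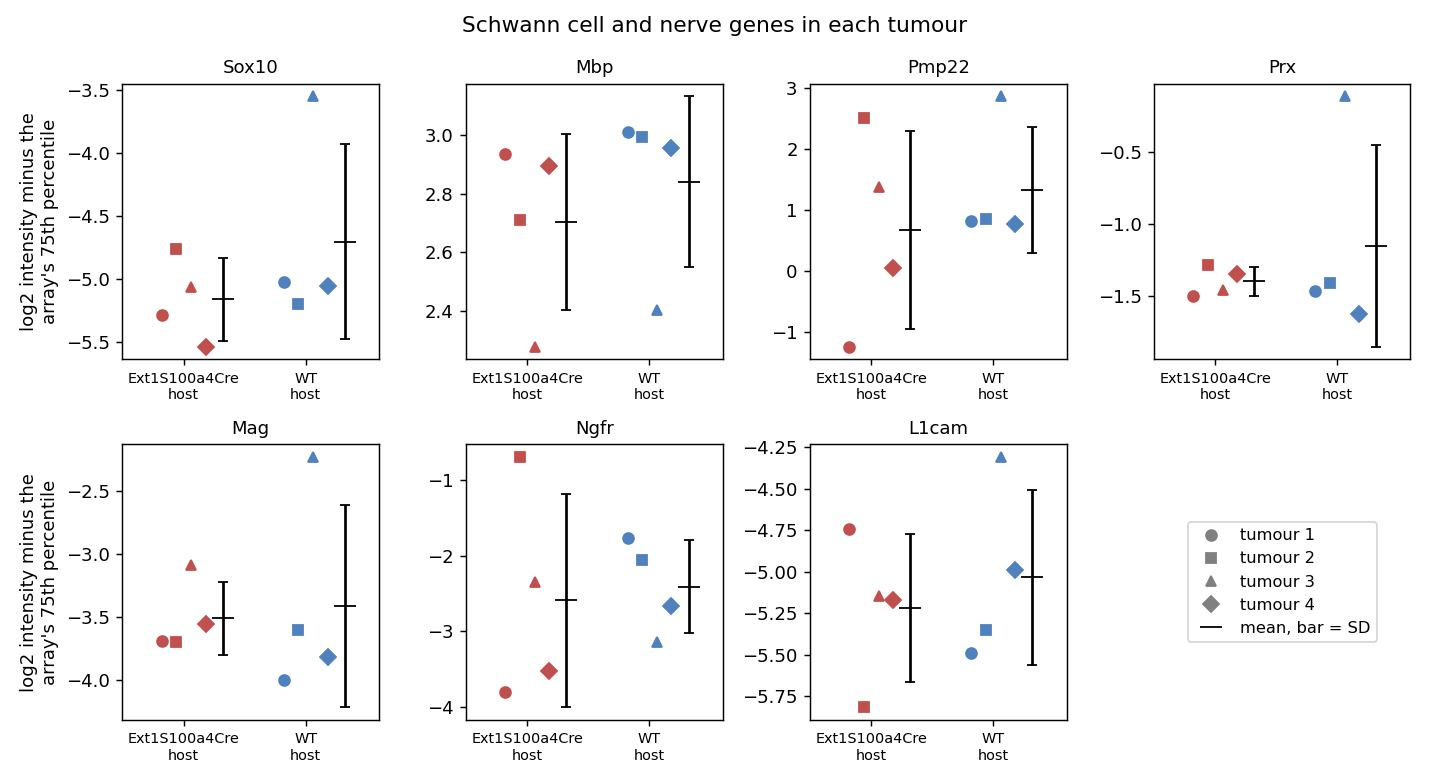
Level of each gene (y axis, log2 intensity minus the array's 75th percentile) in the 4 tumours of the Ext1S100a4Cre host (red, left) and the 4 of the WT host (blue, right), with tumour number shown by symbol and the mean and SD in black. WT host tumour 3 (blue triangle) lies above the 7 other tumours for Sox10, Pmp22, Prx, Mag and L1cam, and the groups overlap for all 7 genes.

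Sox10, the transcription factor that specifies neural crest glia and is kept on through the Schwann cell lineage, was well above background in all 8 tumours. Its level was -5.28, -4.76, -5.06 and -5.53 in Ext1S100a4Cre host tumours 1 to 4, and -5.02, -5.19, -3.55 and -5.05 in WT host tumours 1 to 4. In the WT host, tumour 3 stood apart, 2.90-fold above the mean of the other WT host tumours, and the other 7 tumours lay within 0.77 log2 units. The means were -5.16 ± 0.33 in the Ext1S100a4Cre host and -4.70 ± 0.77 in the WT host (SD, n = 4 each). The difference of -0.45 (SE 0.37, 95% interval -1.32 to 0.41) had a limma adjusted p of 0.771 and an exact permutation p of 0.343. It was -0.07 without WT host tumour 3 and -0.04 with normexp background correction, another way of removing background. Sox10 is also a gene of melanocytes. The log2 of the summed signal of melanocyte markers was 0.97 to 1.87 in the Ext1S100a4Cre host and 1.32 to 2.50 in the WT host, over the 7 of 10 that were tested, and Tyrp1, Slc45a2 and Oca2 were dimmer than the filter. Their level was highest, 0.85, in WT host tumour 3, but the genes did not agree. Of the 7 genes 4 were highest there, Kit and Ednrb among them, whereas Dct and Pmel were not. Pmel was highest in Ext1S100a4Cre host tumour 3, at -1.18. The part of melanocytes in the Sox10 values was not tested.

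Mbp encodes myelin basic protein, which compacts the inner faces of the myelin sheath. It was read by 3 probes, of which 1 ran against the other 2 in WT host tumour 3. The bright probe, annotated to NM_001025245, measured 2.93, 2.71, 2.28 and 2.89 in Ext1S100a4Cre host tumours 1 to 4 and 3.01, 2.99, 2.40 and 2.96 in WT host tumours 1 to 4. Both number 3 tumours were lowest in their group, and the groups overlapped. Its difference was -0.14 (SE 0.21, limma adjusted p = 0.866, exact permutation p = 0.457), and without Ext1S100a4Cre host tumour 3 it was 0.0060.

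The other 2 Mbp probes, annotated to NM_010777, had the opposite pattern in WT host tumour 3. The first measured -6.12, -5.63, -5.06 and -5.95 in the Ext1S100a4Cre host, against -5.52, -5.33, -2.78 and -4.66 in the WT host. There WT host tumour 3 was 5.25-fold above the mean of the other WT host tumours. The second gave -5.10, -5.23, -5.69 and -5.61 in the Ext1S100a4Cre host and -5.25, -5.69, -4.05 and -5.08 in the WT host, with tumour 3 again the highest. The Mbp gene produces both myelin transcripts and longer Golli transcripts that are found in blood cells and neurons, and the files do not say which of these a probe reads. In a fit of every probe the first dim probe differed by -1.12 (SE 0.58, limma adjusted p = 0.771) and the second by -0.39 (SE 0.34, limma adjusted p = 0.798). Without WT host tumour 3 these became -0.52 and -0.07. Averaging the 3 probes gave Mbp a difference of -0.55.

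Pmp22, a membrane protein of compact myelin whose dosage underlies hereditary neuropathies, varied most among the 7 genes. It measured -1.23, 2.50, 1.38 and 0.04 in Ext1S100a4Cre host tumours 1 to 4, and 0.83, 0.85, 2.86 and 0.77 in WT host tumours 1 to 4. In the WT host, tumours 1, 2 and 4 lay close together, while the Ext1S100a4Cre host tumours were spread over 3.74 log2 units on both sides of them. The means were 0.67 ± 1.62 in the Ext1S100a4Cre host and 1.33 ± 1.02 in the WT host (SD, n = 4 each). The difference of -0.65 (SE 0.83, 95% interval -2.56 to 1.26) had a limma adjusted p of 0.836 and an exact permutation p of 0.514. Leaving out 1 tumour never changed the sign of this difference, but its size depended on single tumours. The difference was -0.02 without Ext1S100a4Cre host tumour 1, -0.14 without WT host tumour 3 and -1.26 without Ext1S100a4Cre host tumour 2. Without Ext1S100a4Cre host tumours 1 and 4 it turned to 0.62.

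The second Pmp22 probe ordered the tumours much alike, with -2.97, -0.92, -1.67 and -2.57 in the Ext1S100a4Cre host and -1.96, -1.98, -0.85 and -2.29 in the WT host. Fibroblast markers, of which all 14 were tested, stood at -2.85, 0.78, 0.25 and -0.99 in Ext1S100a4Cre host tumours 1 to 4 and at 0.01, 0.63, 2.01 and 0.15 in WT host tumours 1 to 4, relative to the mean of the 8. Their extremes fall in the same tumours as the extremes of Pmp22. This was not particular to fibroblast markers, since the macrophage, endothelial, melanocyte and B-cell markers had their extremes in the same tumours. Skeletal muscle, adipocyte and epithelial markers were not highest in WT host tumour 3. Adipocyte markers were nevertheless high there, at 2.24, against -1.56, -1.32 and -0.64 in WT host tumours 1, 2 and 4. In the Ext1S100a4Cre host they stood at -1.83, 1.65, 3.25 and -1.79. Adipocyte markers and Pmp22 thus shared their highest tumours, WT host tumour 3 and Ext1S100a4Cre host tumours 2 and 3, though not the order among these. The part of any of these cell types in the Pmp22 values was not tested.

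**Figure D2:**
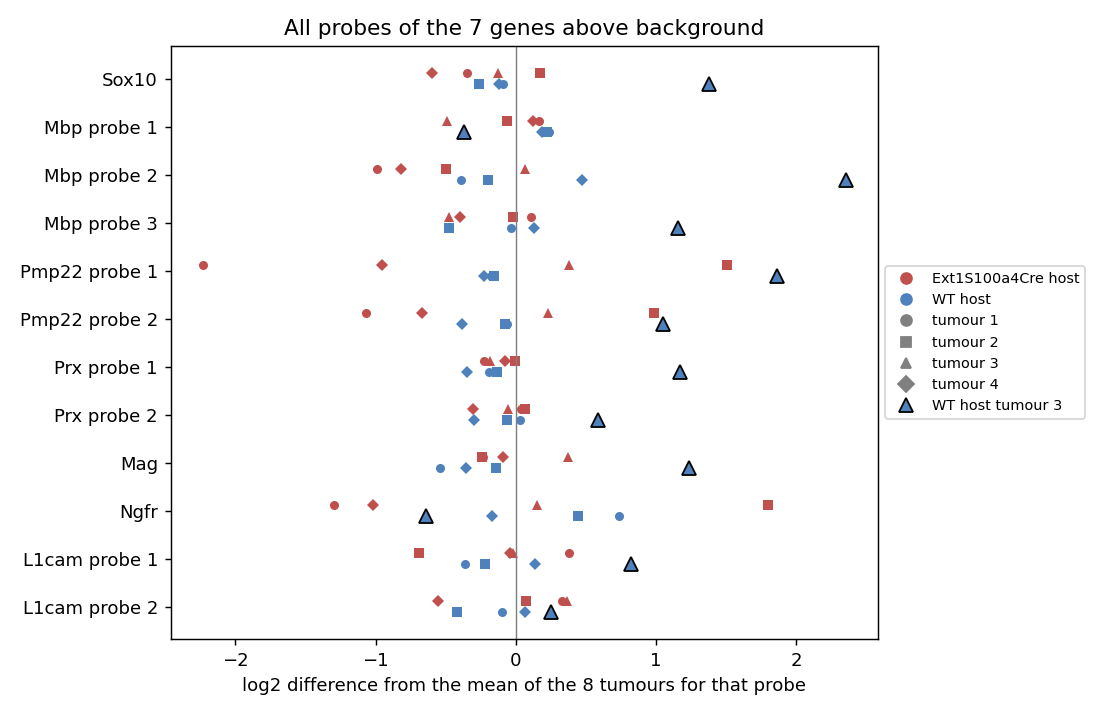
Each row is 1 probe of the 7 genes that was well above background, brightest probe first within a gene, and the x axis gives each tumour's log2 difference from the mean of the 8 tumours for that probe. WT host tumour 3 (outlined triangle) is the highest tumour for 9 probes and lies among or below the others for the bright Mbp probe, Ngfr and the second L1cam probe.

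Prx encodes periaxin, a scaffold of myelinating Schwann cells that links the sheath to the basal lamina. It was the steadiest gene apart from WT host tumour 3. Its level was -1.50, -1.28, -1.46 and -1.35 in Ext1S100a4Cre host tumours 1 to 4, and -1.47, -1.41, -0.11 and -1.63 in WT host tumours 1 to 4. The 7 tumours other than WT host tumour 3 lay within 0.34 log2 units, and that tumour was 2.63-fold above the mean of the other WT host tumours. The difference between hosts was -0.25 (SE 0.32, limma adjusted p = 0.839, exact permutation p = 0.886). The second Prx probe also had its highest value in WT host tumour 3, -2.62, and measured -3.51 to -3.14 in the Ext1S100a4Cre host and -3.50 to -3.17 in the other WT host tumours.

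Mag, the myelin-associated glycoprotein that sits at the contact of myelin and axon, measured -3.69, -3.70, -3.09 and -3.56 in Ext1S100a4Cre host tumours 1 to 4. In WT host tumours 1 to 4 it measured -4.0, -3.61, -2.23 and -3.82. Again tumour 3 of the WT host was highest, 2.98-fold above the mean of its group's other tumours, and the groups overlapped. Without it the difference was 0.30. The means were -3.51 ± 0.29 in the Ext1S100a4Cre host and -3.41 ± 0.81 in the WT host (SD, n = 4 each). The difference was -0.10 (SE 0.38, limma adjusted p = 0.951, exact permutation p = 0.943).

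Ngfr encodes the low-affinity neurotrophin receptor, which marks immature and repair Schwann cells as well as some mesenchymal cells. It did not share the WT host tumour 3 pattern. Its level was -3.79, -0.70, -2.35 and -3.52 in Ext1S100a4Cre host tumours 1 to 4, and -1.77, -2.06, -3.14 and -2.67 in WT host tumours 1 to 4. The highest and the 2 lowest values were all in the Ext1S100a4Cre host. The means were -2.59 ± 1.41 in the Ext1S100a4Cre host and -2.41 ± 0.61 in the WT host (SD, n = 4 each). The difference of -0.18 (SE 0.67, 95% interval -1.72 to 1.36) had a limma adjusted p of 0.948 and an exact permutation p of 0.800. Without Ext1S100a4Cre host tumours 1 and 4 it turned to 0.88, without tumour 1 or 4 alone to 0.22 or 0.13, and without WT host tumour 1 to 0.03. With normexp it was -0.04.

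L1cam is an adhesion molecule of axons and of Schwann cells that do not myelinate. Its brightest probe measured -4.74, -5.82, -5.14 and -5.17 in Ext1S100a4Cre host tumours 1 to 4, and -5.49, -5.35, -4.31 and -4.99 in WT host tumours 1 to 4. The lowest value lay in the Ext1S100a4Cre host and the highest in the WT host, and the groups overlapped. Its difference was -0.18 (SE 0.31, limma adjusted p = 0.879, exact permutation p = 0.629). It was 0.01 without Ext1S100a4Cre host tumour 2 and 0.06 without WT host tumour 3. A second probe, above background on 7 of 8 arrays, was highest in Ext1S100a4Cre host tumour 3 and differed by 0.10 (SE 0.24, limma adjusted p = 0.926 in the fit of every probe), so the probes gave opposite signs. The last L1cam probe was well above background on 0 of the 8 arrays, and no fold is given for it.

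**Figure D3:**
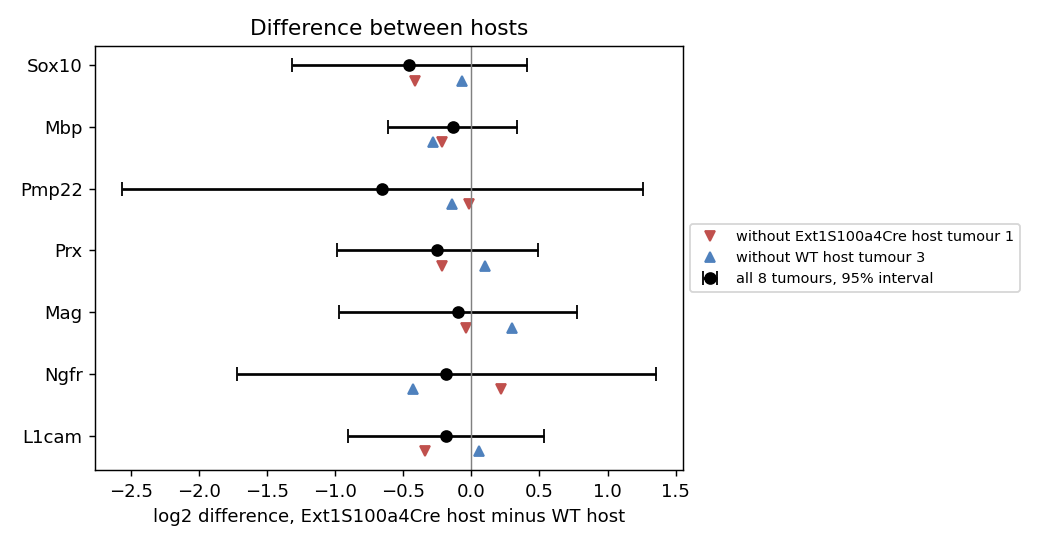
Difference of each gene between hosts (x axis, log2, Ext1S100a4Cre host minus WT host) with its 95% interval in black, and the same difference without Ext1S100a4Cre host tumour 1 (red) or without WT host tumour 3 (blue). All 7 intervals span 0, and Prx, Mag and L1cam move above 0 without WT host tumour 3.

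All 8 arrays were printed on 1 slide, and each of its 2 rows held 2 tumours of each host. With the slide row as a block the adjusted p of the 7 genes ran from 0.776 to 0.948. Within the first row 3 of the 7 genes had a lower mean in the Ext1S100a4Cre host, with differences from -0.33 for Ngfr to 0.14 for L1cam. Within the second row, which held WT host tumour 3, all 7 had, with differences from -1.10 for Pmp22 to -0.03 for Ngfr.

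Other Schwann cell and myelin genes gave a mixed picture with no call. Of 24 listed genes 22 were tested, 12 with a lower and 10 with a higher mean in the Ext1S100a4Cre host, and 0 passed in either direction. Their median difference was -0.11, against 0.05 over all genes tested, and 8 of the 22 were highest in WT host tumour 3. The median was -0.23 without Ext1S100a4Cre host tumour 2 and -0.03 without Ext1S100a4Cre host tumour 1, and it turned to 0.02 over genes well above background on 8 arrays.

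S100b, a calcium-binding protein used to mark Schwann cells, was clear of background in 3 Ext1S100a4Cre host tumours and 4 WT host tumours. It measured -6.57, -2.47, -4.51 and -5.93 in the Ext1S100a4Cre host, against -5.25, -4.99, -2.02 and -4.88 in the WT host. Its difference was -0.58 (SE 1.02, limma adjusted p = 0.883), and 0.17 without WT host tumour 3. The lowest of the 8 values were in Ext1S100a4Cre host tumours 1 and 4, and the highest was in WT host tumour 3. Cnp, an enzyme of noncompact myelin, was 0.35 to 0.66 in the Ext1S100a4Cre host and 0.29 to 0.60 in the WT host. Egr2, the partner of Sox10 in myelination and a gene of macrophages too, measured -2.80, 0.19, 0.06 and 0.05 in the Ext1S100a4Cre host, against -0.18, 0.01, 1.79 and -0.49 in the WT host. Its lowest value was in Ext1S100a4Cre host tumour 1 and its highest in WT host tumour 3, 4.03-fold above the mean of the other WT host tumours, and its difference was -0.91 (SE 0.77, limma adjusted p = 0.774). Cdh19, another Schwann cell marker, and Cldn19 were dimmer than the filter.

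**Figure D4:**
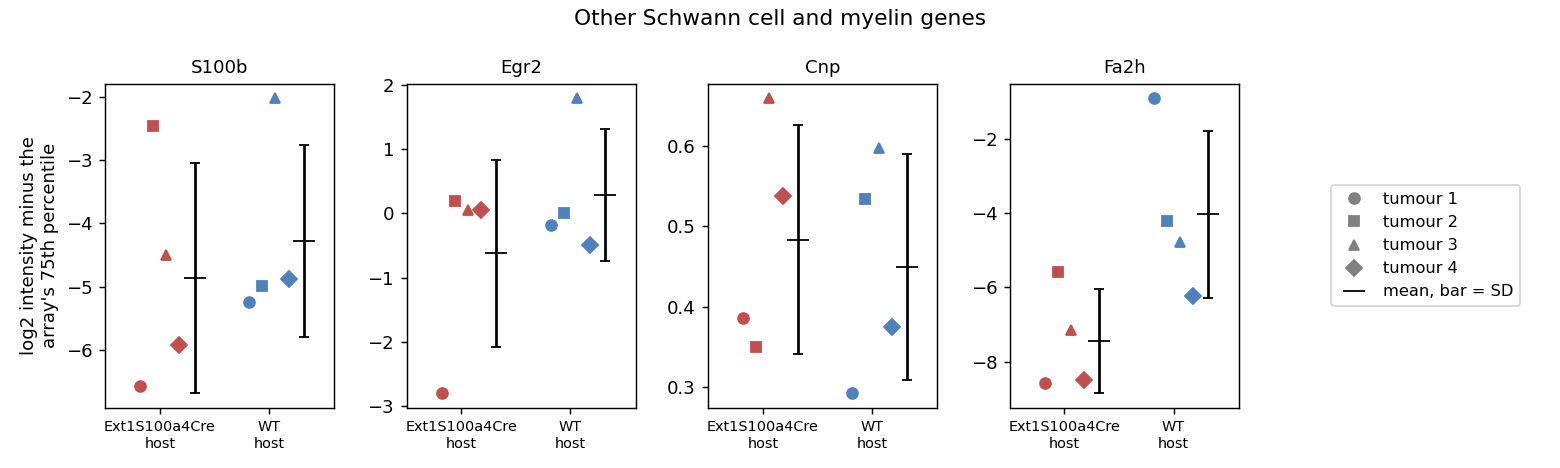
Level of S100b, Egr2, Cnp and Fa2h (y axis, log2 intensity minus the array's 75th percentile) in the tumours of the Ext1S100a4Cre host (red, left) and the WT host (blue, right), with tumour number by symbol and the mean and SD in black. WT host tumour 3 is highest for S100b and Egr2, and Ext1S100a4Cre host tumours 1 and 4 are lowest for S100b. In the Ext1S100a4Cre host, S100b was clear of background in 3 tumours and Fa2h in only 1. The mean and SD drawn there for Fa2h therefore rest mostly on background readings, and no order is read from them.

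Fa2h, which hydroxylates the fatty acids of myelin lipids, measured -8.56, -5.58, -7.13 and -8.47 in the Ext1S100a4Cre host, against -0.92, -4.21, -4.79 and -6.24 in the WT host. It was clear of background in 1 Ext1S100a4Cre host tumour and 4 WT host tumours, so it was kept through the WT host arrays, and no fold or p is given. The groups overlapped. Erbb3, the neuregulin receptor of Schwann cells, differed by 0.36 (SE 0.18) and Gfap, a filament protein of glia, by -0.29 (SE 0.17). Neither passed.

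Axon and neuron genes did not move together. Of 20 listed genes 14 were tested, with 5 lower, 9 higher and a median difference of 0.07, and 0 passed. Leaving out 1 tumour gave medians of -0.01 to 0.13. The neurofilament genes Nefl and Nefm, which encode the cytoskeleton of axons, had the smallest unadjusted p. Nefl measured -6.19, -4.93, -4.72 and -5.80 in the Ext1S100a4Cre host, against -3.35, -4.16, -4.27 and -2.67 in the WT host, so all tumours of the Ext1S100a4Cre host were below all of the WT host. It was clear of background in 3 Ext1S100a4Cre host tumours and 4 WT host tumours. Its difference was -1.80 (SE 0.45, limma adjusted p = 0.733), and Nefm differed by -1.44 (SE 0.50, limma adjusted p = 0.747). Without WT host tumour 3 the differences were -2.02 and -1.75. Nefh, another neurofilament gene, overlapped between hosts and differed by only -0.19 (SE 0.45), and by 0.06 without WT host tumour 3. Snap25, a protein of vesicle release, differed by 0.16 (SE 0.19) and did not pass. Scn10a, a sodium channel of sensory neurons, was clear of background in 2 Ext1S100a4Cre host tumours and 4 WT host tumours, and no difference is given. Prph, Syt1, Tac1, Scn9a and Trpv1, all neuron genes, were dimmer than the filter.

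A list of neurotrophins, GDNF family ligands, their receptors and partners of myelin inhibitors was tested for 16 of 20 genes. Of these 6 were lower and 10 higher, the median difference was 0.12 (0.06 to 0.21 with 1 tumour left out), and 0 passed. Sort1, which encodes the co-receptor sortilin that Ngfr uses for proneurotrophins, was higher in every Ext1S100a4Cre host tumour than in any WT host tumour, by 0.31 (SE 0.12, limma adjusted p = 0.747). Gfra3 and its ligand gene Artn, which guide sympathetic and sensory axons, differed by 1.87 (SE 0.76) and 1.41 (SE 0.71), with an adjusted p of 0.747 each. Artn was lowest in WT host tumour 3 at -1.42, as was Gfra3 at -4.44, and without that tumour the difference was 0.69 for Artn and 1.21 for Gfra3. Ret, the signalling receptor of the GDNF family, was clear of background in 1 Ext1S100a4Cre host tumour and 3 WT host tumours, and no difference is given.

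Among relatives and partners of L1cam, 13 of 14 genes were tested, 7 lower and 6 higher, with a median of -0.06 and 0 called. The sign of that median was not stable: it was -0.15 without Ext1S100a4Cre host tumour 2 and 0.03 without Ext1S100a4Cre host tumour 1 or 4. Itgav, an integrin subunit that binds L1cam, differed by -0.47 (SE 0.17) with no overlap, and Nrcam, an L1 family member, by 0.74 (SE 0.31), each with an adjusted p of 0.747. Nrp1, a semaphorin co-receptor, differed by -0.72 (SE 0.53) and Itgb3, an integrin subunit, by -0.59 (SE 0.44), and neither passed. Of neuregulins and ErbB receptors 5 of 7 were tested, 3 lower and 2 higher, with a median of -0.02 (-0.12 to 0.06 with 1 tumour left out) and 0 called. Erbb2, the signalling partner of Erbb3, differed by 0.32 (SE 0.13, limma adjusted p = 0.747) with no overlap. Nrg1, the neuregulin that drives myelination, differed by -0.74 (SE 0.57) and Egfr by -1.40 (SE 0.97), and neither passed.

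The genes whose pattern over the 8 tumours was most like each of the 7 were found by Pearson's r among 15737 named genes. The 3 most alike were Mturn, Adam12 and Wdr25 for Sox10 (r = 0.987, 0.985 and 0.978) and Sspn, Ahnak and Rbms2 for Pmp22 (r = 0.990, 0.990 and 0.989). For Ngfr they were Igfbp5, Rftn2 and Krt23 (r = 0.992, 0.963 and 0.960), and for the bright Mbp probe Ermp1, Adad2 and Kcnj13 (r = 0.976, 0.973 and 0.970). For Mag they were Nr1h3, Tmsb10 and Lacc1 (r = 0.988, 0.985 and 0.965), for Prx Hamp2, Abracl and Pcsk1n (r = 0.991, 0.988 and 0.983), and for L1cam Cdk19, Tmem35b and Cyb561a3 (r = 0.956, 0.945 and 0.939). None of the 7 genes was among the 3 most like another. These values are descriptions of 8 tumours that share 1 slide. They rest on WT host tumour 3 most for Prx, whose 3 values fell to between 0.731 and 0.797 without it.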

How the data were processed

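Expression was measured on 1-colour Agilent arrays in 8 whole tumours. Per the file headers, the deposited processed intensity of a spot was made by Agilent Feature Extraction 10.7.3.1, and version 9.1 is given in the submitters' processing notes. The other deposited columns used hold spot flags. The deposited series matrix equalled, within 0.01% for 100% of probes, the geometric mean of the unflagged spots, and so carries no scaling between arrays.

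Control spots and spots with an outlier flag (53 to 132 per array) were left out, no spot was saturated, and spots of a probe were averaged on the log2 scale. The 75th percentile was taken over all spots that are not controls, as in the file headers, a choice made over a percentile of probes after results with that percentile were seen. Probes were named by accession in a RefSeq table of GRCm38.p6 (32994 of 56605 named); the headers name mm9, so no coordinates were used. Limma 3.58.1 in R 4.3.3 compared 4 with 4 tumours over 31281 genes and transcripts, two-sided, with Benjamini-Hochberg adjustment over all of them, and was checked on simulated data. The exact permutation test ran over 70 assignments, with 0.0286 the smallest p it can give. The number of arrays limits the precision. The labels number the tumours and say no more on their origin, so p-values measure only the spread between these tumours.

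The 7 genes and the gene lists were chosen with earlier results of these data known. Some genes of the lists are not reported here. Each of the 7 is named in full, with the 3 genes most like it by r and up to 4 genes per list by smallest unadjusted p. Other Schwann cell genes, Nefh, marker genes that were absent and the Mbp and L1cam probes beyond the brightest were named after their values were seen. Alternatives covered background correction, scaling, the series matrix, the filter, the probe rule, blocks, the variance and left-out tumours. Leaving out 2 tumours together, every probe on its own and the percentile over probes were chosen after seeing the data. The labels do not say whether replicate numbers pair the tumours, and the main fit did not pair them. Deviations of same-numbered tumours correlated at 0.493, -0.162, 0.591 and -0.245, which cannot settle the question. A fit with the number as a block is given below.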

Additional observations from a re-analysis of the deposited data

Results flagged for a closer look

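In groups of 4 tumours a lone value was sought among 164 groups of values, and 11 held one, where chance gives about 5% of groups. The count is thus not far from that of chance. Some groups also share genes, such as Cdh5 and the endothelial list, and so are not independent. In the WT host, tumour 3 was the lone value for 4 probes of the 7 genes. It stood at -3.55 for Sox10 (others -5.19 to -5.02), 2.86 for Pmp22 (0.77 to 0.85), -0.11 for Prx (-1.63 to -1.41) and, on the low side, 2.40 for the bright Mbp probe (2.96 to 3.01). The mean of the 7 genes was 0.78 there, relative to the mean of the 8 tumours, against -0.13 to -0.04 in the other WT host tumours.

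Among marker genes, WT host tumour 3 was also alone for the adipocyte genes Cidec, at 0.057 (-5.20 to -5.06), and Retn, at -0.43 (-4.69 to -4.23). WT host tumour 4 was alone for the epithelial gene Vil1 at -0.38 (-1.63 to -1.44). Ext1S100a4Cre host tumour 1 was alone for the endothelial gene Cdh5 at -1.48 (0.14 to 0.37) and for the endothelial list at -1.44 (0.01 to 0.21). Ext1S100a4Cre host tumour 3 was alone for the intestinal gene Cdx1 at -2.57 (-4.28 to -4.02).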

How the results depend on the processing

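Over 22 alternatives none of the 7 genes passed, with a smallest limma adjusted p of 0.281, and Sox10 was negative in all 22, from -0.70 to -0.03. The -0.70 is from the series matrix, which is not scaled between arrays. Sox10 has 1 probe, so the filters, the probe rule, the blocks and the variance left its difference at -0.45. These alternatives could not change its sign. With normexp Sox10 and Ngfr shrank to -0.04 each, Mag and L1cam turned to 0.016 and 0.070, 5 of 7 genes were lower and 1 gene was called over all genes. Leaving out 1 tumour in turn gave differences of -0.62 to -0.07 for Sox10, -0.28 to 0.0060 for Mbp, -1.26 to -0.02 for Pmp22, -0.41 to 0.10 for Prx, -0.29 to 0.30 for Mag, -0.81 to 0.22 for Ngfr and -0.34 to 0.058 for L1cam, with 0 to 2 genes called and 4 to 7 of the 7 genes lower. Without Ext1S100a4Cre host tumours 1 and 4, Pmp22, Mag and Ngfr turned to 0.62, 0.02 and 0.88, 4 of 7 were lower and 11 genes were called. Without Ext1S100a4Cre host tumour 1 and WT host tumour 3, Pmp22, Prx and Mag turned to 0.50, 0.14 and 0.36, 4 of 7 were lower and 3 genes were called. Without Ext1S100a4Cre host tumours 2 and 3, Mbp and L1cam turned to 0.073 and 0.077. There 5361 of 31281 genes had unadjusted p under 0.05 in limma, in place of 2050. Of the 7 genes 2 did, Pmp22 (-1.92) and Ngfr (-1.25). In that fit the Ext1S100a4Cre host is left with only its tumours of low Y-linked values, and the WT host has no such tumour. If these values mark host sex, it cannot be told apart from genotype there. The medians of the 5 gene lists were -0.36 to -0.13 in the series matrix, which carries no scaling between arrays. The cause of the other changes was not tested. With the replicate number as a block 0 genes were called and 3241 had unadjusted p under 0.05, and the adjusted p of Sox10 was 0.666. Dim signal limits Sox10, L1cam and the dim Mbp probes, and 4 tumours a group limit all.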
